A study of Mus musculus with 6 samples.

Results

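The genes described here carry and restrain cytokine signals through STAT3 and related factors: the receptor chains Il6st and Il10ra, the transcription factors Stat3 and Stat6, and the feedback inhibitors Cish, Socs1, Socs2 and Socs3. They were taken by name from the counts table, where 8 of 9 listed genes were found among 15601; Il6ra, the ligand-binding chain of the interleukin-6 receptor, was not analysed here. RNA was sequenced from liver lymphocytes of mice given tamoxifen (3 libraries) or corn oil, its vehicle (3 libraries). The series title names ILC1s, the largely tissue-resident innate lymphoid cells of liver, and RORα, the nuclear receptor encoded by Rora. Tamoxifen binds oestrogen receptors and is in wide use as the inducer of Cre recombinases fused to such a receptor. The labels give no genotype, age, dose, timing, number of cells or number of animals behind a library. Nothing says that each library came from its own animal, so p-values here speak only of the spread among libraries, part or all of which may be technical.

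Cytokine receptors of this kind have no kinase of their own. They bind Janus kinases, which phosphorylate STAT proteins, and the STATs then enter the nucleus and switch on target genes. Among those targets are the SOCS genes and Cish, whose products carry an SH2 domain and a SOCS box, bind the activated receptors or kinases, and shut the signal down. Interleukin-6 and most of its relatives signal through gp130, the product of Il6st, mainly to STAT3. Interleukin-10 signals through Il10ra to STAT3, and interleukin-4 through STAT6. In NK cells and ILC1s, interleukin-15 signals mainly through STAT5, for which Cish and Socs2 are classical target genes.

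Cish, Socs3 and Socs1 carry short recognition motifs for transcription factors near their start sites, shown here as background. Any link between these motifs and the levels given below was not tested. The motif TTCNNNGAA is the palindrome bound by most STATs, and GAAANNGAAA is the core of the element bound by interferon regulatory factors. Each was searched on both strands of the RefSeq windows (GRCm38.p6) of 250 bases before and 50 bases after the gene start, which were at hand for 7 of the 9 listed genes. In the stretches of 30 bases below, written 5′ to 3′, capitals mark the motif. The Cish stretch (chr9:107296654-107296683, plus strand) held 2 STAT palindromes separated by 2 bases, the first of which begins at the RefSeq start itself. The Socs3 stretch (chr11:117969501-117969530, minus strand) held 1 palindrome that begins 154 bases before the start. The Socs1 stretch (chr16:10785597-10785626, minus strand) held 2 copies of GAAANNGAAA that overlap by 4 bases.
Cish: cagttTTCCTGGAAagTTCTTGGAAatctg
Socs3: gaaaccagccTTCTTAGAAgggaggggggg
Socs1: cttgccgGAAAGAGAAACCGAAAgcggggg
Of all 32851 windows, 8.3% held TTCNNNGAA at least once and 0.457% held 2 or more copies. GAAANNGAAA was held at least once by 3.44% and in 2 or more copies by 0.225%, with overlapping copies each counted. The Socs1 window held no TTCNNNGAA, and the windows of Stat3, Stat6 and Il6st held neither motif; the letters alone do not show binding.

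The libraries held 5289803 to 6325899 counts, and all carried NK and ILC1 transcripts. Ncr1, which encodes NKp46, stood at 1155 to 1337 CPM (counts scaled to a common library size by the TMM method) in the tamoxifen libraries and at 1123 to 1368 CPM in the oil libraries. Markers of myeloid cells, which also use these pathways, were low: the 1 neutrophil marker in the table, Ly6g, was at 0 in all tamoxifen libraries and at 0 to 0.622 CPM in the oil libraries. The 8 macrophage and Kupffer cell markers summed to 35.0 to 40.3 CPM in tamoxifen and to 26.4 to 34.9 CPM in oil. The 9 T cell markers, some of which NK cells and ILC1s also express, summed to 921 to 1352 CPM in tamoxifen and to 1049 to 1307.5 CPM in oil, and hepatocyte markers to 26.3 to 35.4 CPM in tamoxifen and to 20.7 to 34.2 CPM in oil. The part of such cells in the values below was not tested. Markers of B cells, of which Ighm and Cd79b were in the table, summed to 366 to 400.5 CPM in tamoxifen and to 398 to 486 CPM in oil. Ighm was lower in every tamoxifen library than in any oil library. The groups overlapped for Cd79b, at 5.93, 10.3 and 12.8 CPM in tamoxifen and 9.95, 6.95 and 15.1 CPM in oil. Among the 12 ILC1 and NK markers the groups did not overlap for 4 (33.3%, against 8.87% of all genes tested): Cxcr6, Itga1 and Itga2 had lower levels and Klrb1c higher ones in every tamoxifen library, and none passed the test. The markers were chosen with earlier results of these data known, so this share is not evidence about these cells. In such bulk libraries, fewer cells of a type and less RNA per cell cannot be told apart.

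Across all 10811 genes tested with edgeR's quasi-likelihood test and Benjamini-Hochberg adjustment, 1 gene was called higher in tamoxifen (0.00925%) and 0 were called lower (0%). Without tamoxifen replicates 1, 2 and 3 the same test called 6, 1 and 0 genes, and without oil replicates 1, 2 and 3 it called 2, 3 and 4. None of the 7 SOCS, STAT and receptor genes that passed the filter on low counts was among the called genes. At an unadjusted p under 0.05 there was 1 of these 7, Socs2, against 3.52% of all genes tested. Socs2 was also the 1 gene of the 7 whose groups did not overlap, against 8.87% of all genes tested. In tamoxifen, 4 of the 7 genes had a higher estimate and 3 a lower one. Their median log2 fold change was 0.01, beside -0.004 for all genes tested. DESeq2 called none of the 7 either.

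**Figure D1:**
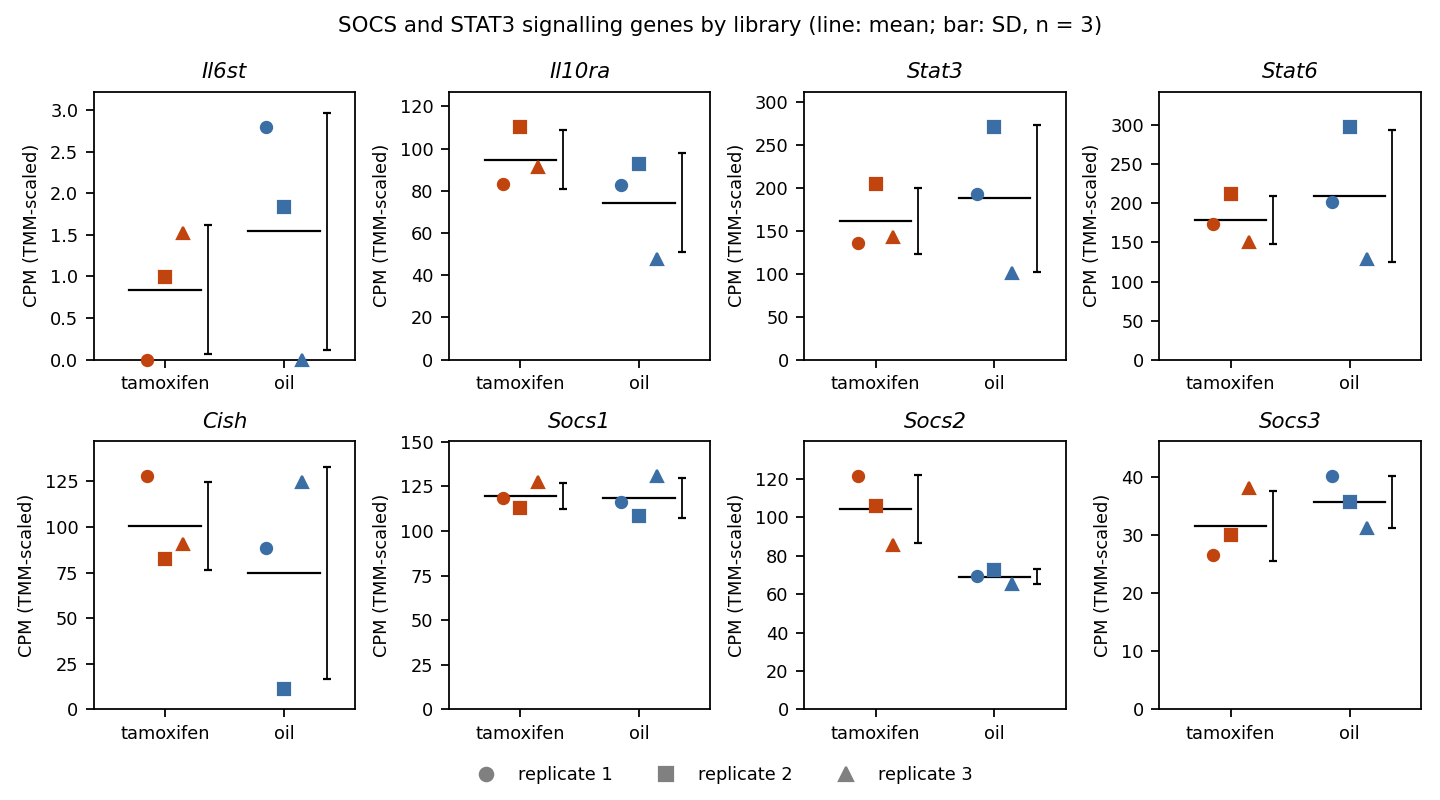
TMM-scaled CPM of the 8 genes in each tamoxifen (orange) and oil (blue) library, with symbols for replicates 1 to 3, the group mean as a line and the SD as a bar (n = 3). Socs2 is higher in all 3 tamoxifen libraries, Cish is far lower in oil replicate 2 than in any other library, and Stat3 and Stat6 have the same highest and lowest library.

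Il6st, the gene of the gp130 chain that most receptors for the interleukin-6 family need, was close to the limit of detection. It had 0, 6 and 8 counts in the tamoxifen libraries and 18, 10 and 0 counts in the oil libraries, or 14 against 28 in all. Both groups thus held 1 library without a count. A count of 0 still allows a level of up to 0.542 CPM in tamoxifen replicate 1 and 0.529 CPM in oil replicate 3 (3 counts, counting error only). These limits are per total counts, without the TMM factor. The highest library, oil replicate 1, stood at 2.80 CPM. Il6st (ENSMUSG00000021756; mm10 chromosome 13, 112464070 to 112510086, plus strand) did not pass the filter, and no fold change is given for it.

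Il10ra, the ligand-binding chain of the interleukin-10 receptor, was by contrast well expressed. Its level was 83.0, 110.3 and 91.1 CPM in the tamoxifen libraries and 82.7, 92.6 and 47.8 CPM in the oil libraries. The groups overlapped, and oil replicate 3 lay well below the other libraries. The log2 fold change was 0.35 (SE 0.25; edgeR's quasi-likelihood test, adjusted p = 0.9995). Without oil replicate 3 it was 0.11. The partner chain Il10rb, which is shared with other receptors of the family, averaged 199 ± 20.1 CPM in tamoxifen and 184 ± 9.56 CPM in oil (SD, n = 3 each). Both chains of the interleukin-10 receptor were therefore read in every library. Il10ra (ENSMUSG00000032089) lies on chromosome 9, 45253837 to 45269149, minus strand.

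Stat3, the factor downstream of gp130 and of the interleukin-10 receptor, varied more between libraries of a group than between groups. It stood at 136, 205 and 143 CPM in the tamoxifen libraries and at 193, 271 and 100.3 CPM in the oil libraries. The oil group held both the highest and the lowest library. The mean was 161 ± 38.0 CPM in tamoxifen and 188 ± 85.5 CPM in oil, a log2 fold change of -0.22 (SE 0.31; edgeR's quasi-likelihood test, adjusted p = 0.9995). Stat6, which carries interleukin-4 and interleukin-13 signals, showed the same arrangement, with 174, 211 and 150.0 CPM in tamoxifen and 202, 298 and 129 CPM in oil. Its log2 fold change was -0.23 (SE 0.27). For both genes the sign of the estimate rested on oil replicate 2: without it the log2 fold change was 0.14 for Stat3 and 0.11 for Stat6. Stat3 (ENSMUSG00000004040) lies on chromosome 11, 100885098 to 100939540, minus strand, and Stat6 (ENSMUSG00000002147) on chromosome 10, 127642986 to 127660957, plus strand.

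The libraries differed in how counts depended on gene length, and the levels of Stat3 and Stat6 followed that order. Gene length was here the length implied by the authors' counts and FPKM, which need not be that of the merged exons. For Stat3 it was 15739 bases, against 9527 bases of merged exons. The slope of log2 CPM, centred per gene, on the log2 of this length was -0.06, 0.05 and -0.06 in tamoxifen replicates 1, 2 and 3 and 0.04, 0.11 and -0.08 in oil replicates 1, 2 and 3. Sorted by slope, the libraries run from oil replicate 3 through tamoxifen replicates 3 and 1, oil replicate 1 and tamoxifen replicate 2 to oil replicate 2. Stat6 had its levels in exactly this order, and Stat3 did so except that tamoxifen replicates 1 and 3 changed places. Socs1 had its levels in exactly the opposite order, within a far narrower range. Il10ra, Socs2, Socs3 and Cish followed neither order: Socs2 was highest in tamoxifen replicate 1 and Cish was lowest in oil replicate 2. The implied lengths of Socs2 and Cish were 13691 and 10850 bases, against 15739 bases for Stat3 and 5778 bases for Stat6. How many of all genes share the order of Stat6 was not counted. With the slope as a covariate in the edgeR fit, the log2 fold change was 0.16 for Stat3 and 0.07 for Stat6. Whether the length trend accounts for the levels of these genes was not tested. Jak1, a Janus kinase gene, also had its highest level in oil replicate 2 and its lowest in oil replicate 3: it stood at 441, 644 and 433 CPM in tamoxifen and at 670.4, 809 and 370.0 CPM in oil.

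**Figure D2:**
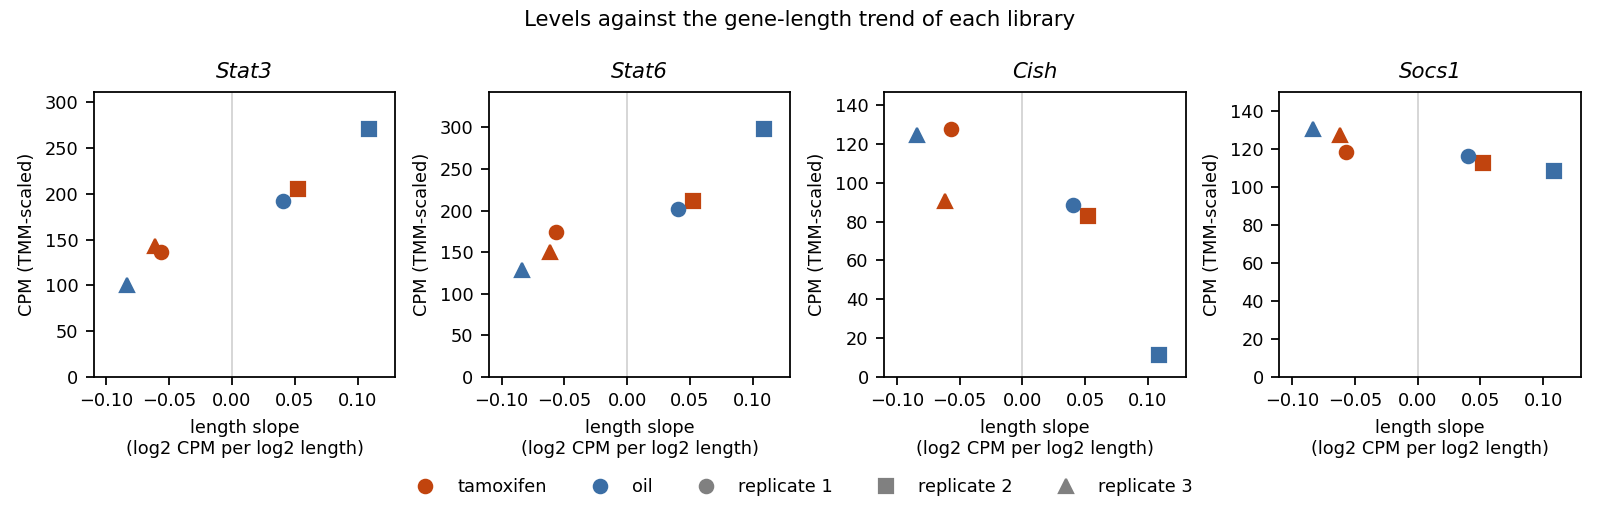
TMM-scaled CPM of Stat3, Stat6, Cish and Socs1 (vertical axes) against the slope of log2 CPM on log2 gene length in each library (horizontal axes), for tamoxifen (orange) and oil (blue) libraries. Gene length is the length implied by the authors' counts and FPKM. Stat3 and Stat6 are highest and Cish and Socs1 lowest in oil replicate 2, which has the steepest slope (0.11).

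Socs2, a STAT5 target best known for restraining growth hormone signalling, was the 1 gene among Socs1, Socs2, Socs3 and Cish whose groups did not overlap. It stood at 121, 106 and 85.9 CPM in the tamoxifen libraries and at 69.5, 72.8 and 65.4 CPM in the oil libraries. Every tamoxifen library lay above every oil library, and the oil libraries were close together. The means were 105 ± 17.9 CPM in tamoxifen and 69.2 ± 3.73 CPM in oil (SD, n = 3 each), a 1.51-fold difference. The log2 fold change was 0.59 (SE 0.20; unadjusted p = 0.0112 in edgeR's quasi-likelihood test across all genes), and it did not pass after adjustment (adjusted p = 0.9995). The exact permutation test of the 3 against 3 values gave p = 0.1, two-sided, the smallest value this design allows. Over the 17 alternative fits the log2 fold change was 0.46 to 0.72, with adjusted p = 0.459 to 1. The authors' deposited table gives Socs2 a p-value of 0.0145 and a q-value of 1. Socs2 (ENSMUSG00000020027) lies on chromosome 10, 95385362 to 95417180, minus strand.

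Cish, which encodes a STAT5-induced inhibitor that restrains interleukin-15 signalling in mouse NK cells, had the widest range as a ratio among the 7 tested genes. It stood at 128, 82.7 and 90.7 CPM in the tamoxifen libraries and at 88.6, 11.2 and 124 CPM in the oil libraries. Oil replicate 2 alone was low, with 61 counts, where the other oil libraries had 570 and 674 counts. The highest library was 11.5 times the lowest, whereas for Socs1 that ratio was 1.21. The log2 fold change of Cish was 0.42 (SE 0.58; edgeR's quasi-likelihood test, adjusted p = 0.9995) with all libraries and -0.09 without oil replicate 2. Of 9 other textbook STAT5 targets, 3 had their lowest oil value in oil replicate 2. Pim1 stood at 20.1 CPM there and at 28.5 and 32.7 CPM in the other oil libraries, Il2ra at 25.8 CPM against 36.5 and 31.4 CPM, and Pim2 at 577 CPM against 728 and 619 CPM. The other targets, among them Osm at 81.6 CPM and Bcl2 at 137 CPM, lay within or above the range of the other oil libraries, and so did Socs2 at 72.8 CPM. Cish (ENSMUSG00000032578) lies on chromosome 9, 107296026 to 107302784, plus strand.

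Socs1, a direct inhibitor of Janus kinases that limits interferon-γ signalling, hardly varied. It stood at 119, 113 and 128 CPM in the tamoxifen libraries and at 116, 108 and 131 CPM in the oil libraries. The groups overlapped fully, and the coefficient of variation was 6.24% in tamoxifen and 9.51% in oil. The log2 fold change was 0.01 (SE 0.17; edgeR's quasi-likelihood test, adjusted p = 0.9995), and it lay between -0.05 and 0.08 over the 17 alternative fits. Socs3, the inhibitor that binds gp130 and is the classical target of STAT3, had 26.5, 29.99 and 38.2 CPM in tamoxifen and 40.1, 35.7 and 31.2 CPM in oil. The highest tamoxifen library exceeded 2 of the 3 oil libraries. Its log2 fold change was -0.18 (SE 0.25), and it was -0.34 to -0.07 over the 17 alternatives. Socs1 (ENSMUSG00000038037) lies on chromosome 16, 10783808 to 10785536, and Socs3 (ENSMUSG00000053113) on chromosome 11, 117966079 to 117970047, both on the minus strand.

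**Figure D3:**
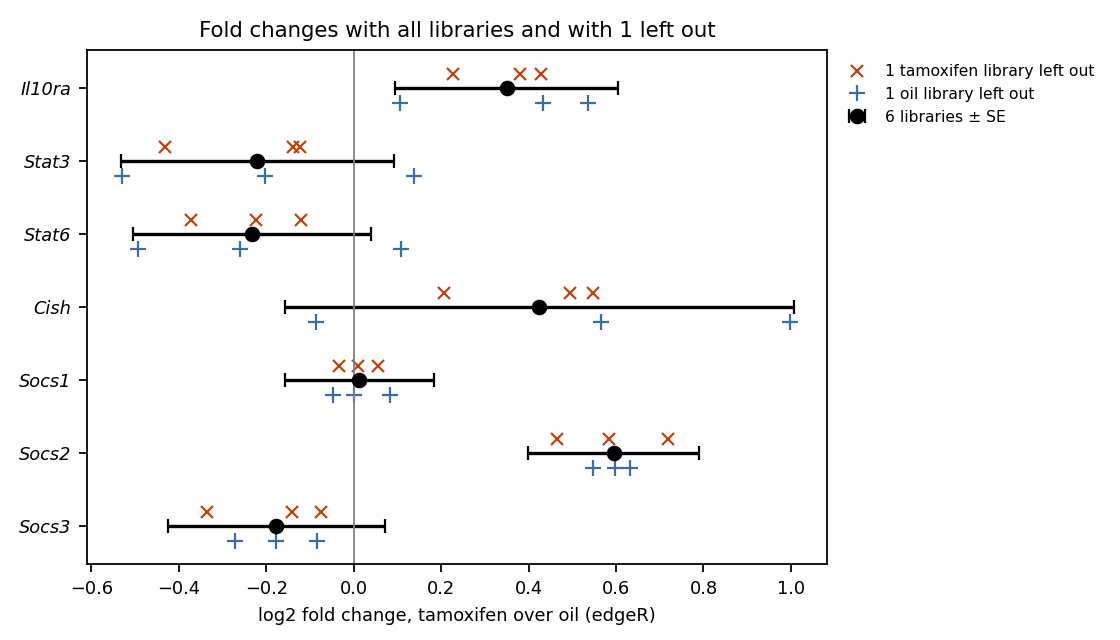
Log2 fold change of tamoxifen over oil for the 7 tested genes (edgeR) with all 6 libraries (black, ± SE) and with 1 tamoxifen (orange) or 1 oil (blue) library left out. Socs2 stays between 0.46 and 0.72 in every fit shown, while Cish, Stat3, Stat6 and Socs1 change sign without oil replicate 2. Socs1, which lies close to 0 in each fit, also does so without tamoxifen replicate 3.

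Levels between genes were compared per length of gene. On the authors' FPKM scale (counts per length of the gene model and per library size), averaged over the 6 libraries, Socs1 led at 97.3 FPKM, followed by Stat6 at 33.8, Stat3 at 11.2, Il10ra at 10.3, Socs3 at 10.2, Cish at 7.97, Socs2 at 6.33 and Il6st at 0.07 FPKM. The ranges over libraries of Socs1, Stat6 and Il6st each stood apart, whereas those of Stat3, Il10ra, Socs3, Cish and Socs2 overlapped their neighbours in this order. The FPKM levels rest on the length the authors gave each gene. For 71.1% of 12106 genes the implied length was within 2% of the summed exon lengths of GENCODE M21, with overlapping exons each counted, and for 14.9% it was within 2% of the merged exons. Socs1 matched neither: its implied length was 1220 bases, against 2908 bases of merged exons. The authors' locus of Socs1, 10783808 to 10785536 on chromosome 16, spans fewer than 2908 bases. The merged exons thus belong to a larger gene model than that locus, and where the 1220 bases come from was not tested. Per kilobase of merged exons, Stat6 stood at 44.1 CPM and Socs1 at 41.0 CPM, with overlapping ranges, so the lead of Socs1 was not seen on that scale. That scale divides Socs1 by more bases than its locus spans, which lowers its value. It therefore does not settle whether Socs1 led. Il10ra followed at 24.2, Stat3 at 18.3, Cish at 13.6, Socs3 at 11.6 and Socs2 at 9.12 CPM per kilobase, and Il6st was last on both scales.

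The make-up of the SOCS family within a library was compared as the share of each gene in the summed FPKM of Socs1, Socs2, Socs3 and Cish. Socs1 made up 78.7 ± 1.38% in tamoxifen and 81.1 ± 2.46% in oil (SD, n = 3 each). Socs2 made up 7.04, 6.64 and 4.80% in tamoxifen and 4.20, 5.01 and 3.59% in oil, so that tamoxifen replicate 3 fell below oil replicate 2. The difference was 1.89 percentage points (exact permutation test, two-sided, p = 0.2). Cish made up 9.35, 6.52 and 6.39% in tamoxifen and 6.76, 0.969 and 8.63% in oil. Because the shares of a library depend on each other, the low Cish in oil replicate 2 raises the other shares there. In CPM the Socs2 groups did not overlap. None of the 4 shares separated the groups, and their exact permutation p-values were 0.2 to 0.6, unadjusted over 4 comparisons. Per kilobase of merged exons, Socs1 took 52.4 ± 2.69% in tamoxifen and 57.1 ± 5.30% in oil. These shares are lowered by a merged length of Socs1 that exceeds its locus.

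**Figure D4:**
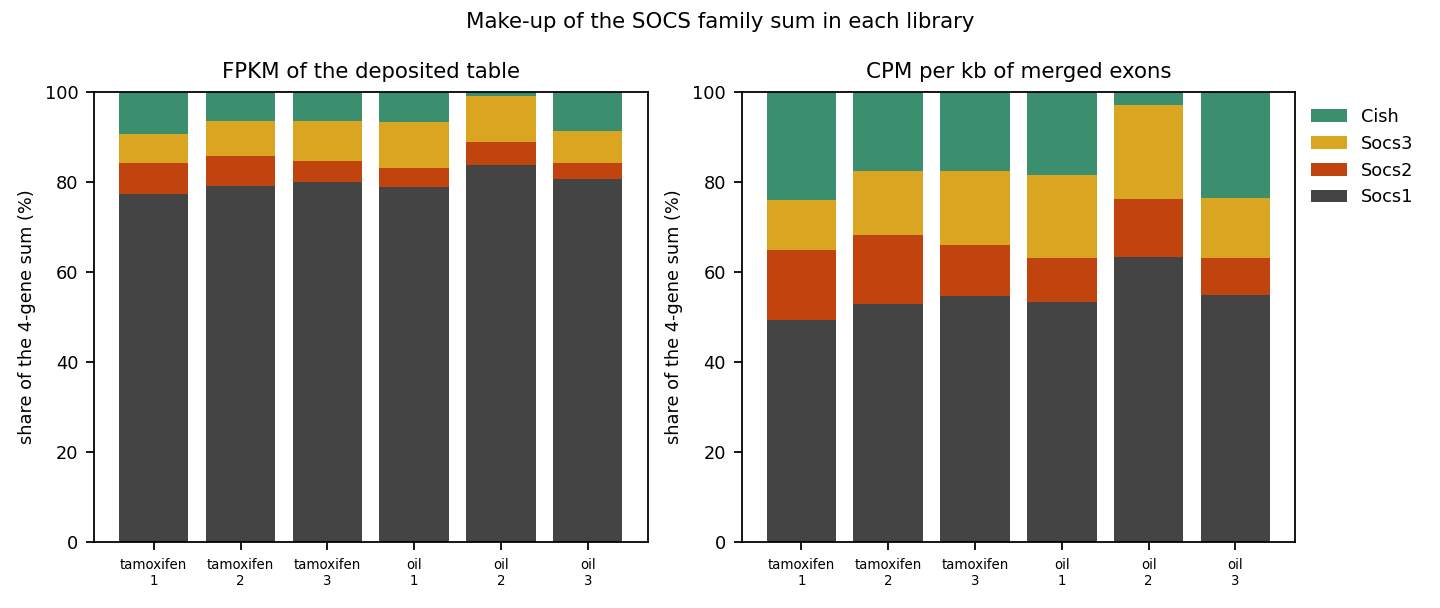
Share of Socs1, Socs2, Socs3 and Cish in their 4-gene sum in each library, in percent, from the authors' FPKM (left) and from CPM per kilobase of merged exons (right). Socs1 is the largest share in every library on both scales, and that of Cish is smallest in oil replicate 2. The merged length of Socs1 exceeds the authors' locus, which lowers its share on the right.

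The other genes of the pathway were grouped by role, from lists chosen with earlier results of these data known. Of 77 genes listed, 61 were in the table and 53 were tested; none passed the adjusted threshold, in this fit or in the 17 alternatives. In tamoxifen, 25 of them had a higher estimate and 28 a lower one, and the median log2 fold change was -0.03. At an unadjusted p under 0.05 there were 9 of the 53 (17%), against 3.52% of all genes tested, and the groups did not overlap for 10 (18.9%), against 8.87%. Lif, Osm, Il7r and Bcl3 were already known from those earlier results when the lists were written, so these shares are not evidence about the pathway.

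Among ligands of the gp130 family, 2 of 3 tested genes had higher and 1 a lower estimate in tamoxifen. Osm, the gene of oncostatin M, was abundant, at 112, 129 and 101 CPM in tamoxifen and at 68.4, 81.6 and 88.8 CPM in oil. All tamoxifen libraries lay above the oil libraries, with a log2 fold change of 0.52 (SE 0.19; edgeR's quasi-likelihood test, adjusted p = 0.9995). Lif, the gene of leukaemia inhibitory factor, had 55 counts over the tamoxifen libraries and 2 over the oil libraries, and stood at 5.19, 2.32 and 2.48 CPM in tamoxifen and at 0, 0 and 0.369 CPM in oil (adjusted p = 0.660 by the same edgeR test). Lifr, the chain that binds leukaemia inhibitory factor, had counts in 1 library only, tamoxifen replicate 2, at 0.663 CPM. The counts of 0 elsewhere allow up to 0.474 to 0.567 CPM, taken without the TMM factor. Il6 itself was read in 1 library only, tamoxifen replicate 1, at 1.11 CPM.

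Among the other receptors that use STAT3, 2 of 4 tested genes had higher and 2 lower estimates. Il11ra1, a chain of the interleukin-11 receptor, was barely expressed, at 1.67, 1.16 and 0.191 CPM in tamoxifen and at 2.18, 3.48 and 4.06 CPM in oil (log2 fold change -1.65, SE 0.75). Il21r, the interleukin-21 receptor, was at 25.9 ± 6.44 CPM in tamoxifen and 20.2 ± 8.41 CPM in oil. Il27ra, whose product pairs with gp130, was at 134 ± 19.9 CPM in tamoxifen and 135 ± 8.99 CPM in oil.

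Receptors for interleukin-4 and the common gamma chain family had 2 higher and 4 lower estimates. Il7r, the interleukin-7 receptor chain, stood at 24.4, 52.7 and 32.4 CPM in tamoxifen and at 15.5, 22.7 and 16.4 CPM in oil (log2 fold change 1.01, SE 0.33), and the groups did not overlap. Il2ra, the high-affinity chain of the interleukin-2 receptor, was at 25.4 ± 3.40 CPM in tamoxifen and 31.2 ± 5.37 CPM in oil. Il2rg, the common gamma chain itself, was read at high levels in every library, at 2556 to 3138 CPM in tamoxifen and at 2977 to 3647 CPM in oil.

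All 4 Janus kinase genes had lower estimates in tamoxifen (median log2 fold change -0.24), with overlapping groups for each. Of all 10811 genes tested, 5459 also had a lower estimate. Jak1, Jak3 and Tyk2 were highest in oil replicate 2, the library with the steepest length slope, and Jak2 in tamoxifen replicate 2. The part of the length trend in these estimates was not tested. Tyk2 averaged 51.8 ± 22.8 CPM in tamoxifen and 83.0 ± 32.6 CPM in oil (log2 fold change -0.68, SE 0.36), and Jak1 had a log2 fold change of -0.28 (SE 0.27). Of the other STAT genes 3 had higher and 2 lower estimates. Stat5a had a log2 fold change of 0.29 (SE 0.33). It averaged 31.6 ± 12.4 CPM in tamoxifen and 25.8 ± 4.85 CPM in oil. The groups overlapped for each of these STAT genes.

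The other SOCS genes had 3 higher and 0 lower estimates among 3 tested. Socs6 stood at 35.4, 27.3 and 19.3 CPM in tamoxifen and at 13.2, 9.88 and 12.7 CPM in oil. Its lowest tamoxifen library lay above its highest oil library, as for Socs2. Its log2 fold change was 1.19 (SE 0.31), with adjusted p = 0.860 in edgeR's quasi-likelihood test. Socs5 had a log2 fold change of 0.54 (SE 0.46), with overlapping groups. Of the 4 partners that join a SOCS box to ubiquitin ligases, 3 had a higher and 1 a lower estimate: Rnf7 had a log2 fold change of 0.26 (SE 0.20) and Tceb1, which encodes elongin C, one of 0.18 (SE 0.21).

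Of 10 other inhibitors of the pathway, 6 had higher and 4 lower estimates in tamoxifen. Pias1, a SUMO ligase, was at 183 ± 4.08 CPM in tamoxifen and 157 ± 9.54 CPM in oil without overlap (log2 fold change 0.22, SE 0.16). Ptprc, which encodes the phosphatase CD45, had a log2 fold change of -0.34 (SE 0.24).

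Target genes of the STATs had estimates of both signs. Textbook STAT3 targets had 3 higher and 5 lower estimates, with Bcl3, a nuclear partner of NF-kB, at 51.3, 78.7 and 79.0 CPM in tamoxifen and at 129, 109 and 109.9 CPM in oil (log2 fold change -0.73, SE 0.21) and Myc at 0.20 (SE 0.19). STAT5 targets had 3 higher and 6 lower estimates. Ccnd3, a D-type cyclin, stood at 137, 225 and 116 CPM in tamoxifen and at 265, 283 and 274 CPM in oil (log2 fold change -0.78, SE 0.23), opposite in sign to Osm in the same list. STAT6 targets were few: Gata3 had a log2 fold change of -0.22 (SE 0.35) and Il4ra one of -0.10 (SE 0.31). None of these targets passed edgeR's quasi-likelihood test after adjustment.

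**Figure D5:**
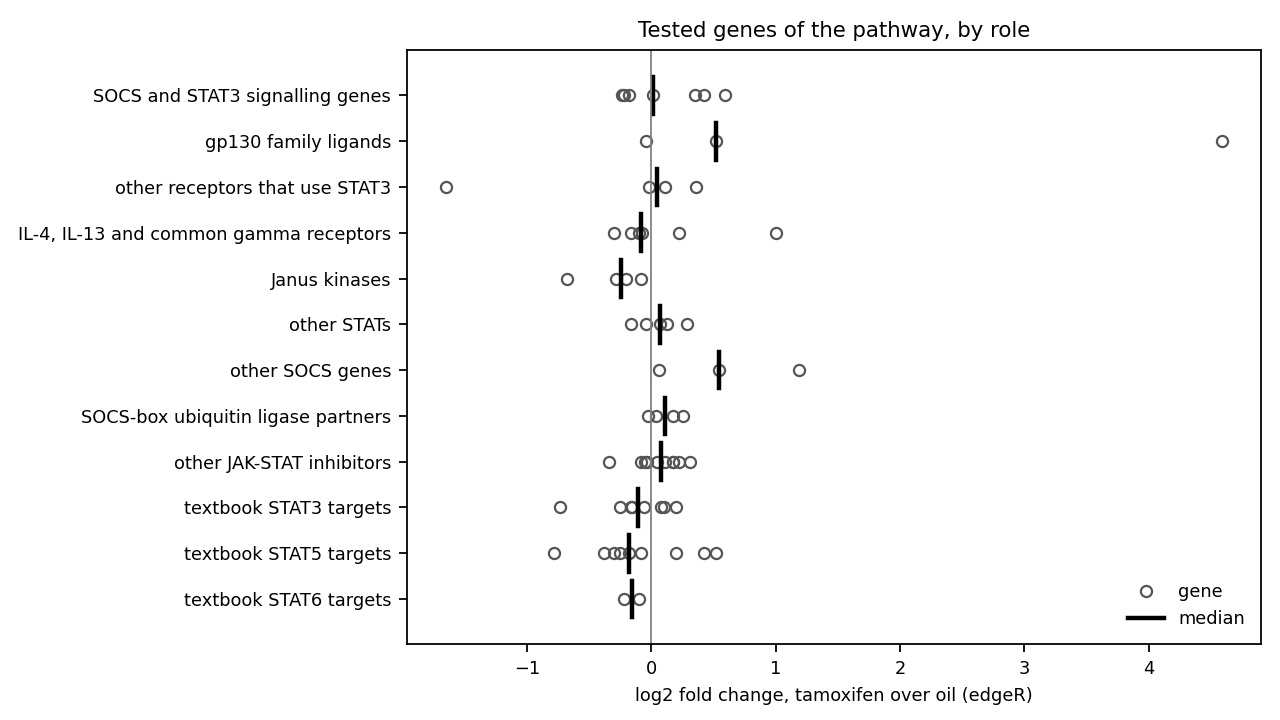
Log2 fold changes of tamoxifen over oil (edgeR) for each tested gene of the pathway, by role, with the median of each list as a bar. Most genes lie near 0, Lif lies farthest to the right at 4.59, and the 4 Janus kinase genes all lie left of 0.

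The genes with patterns most like the inhibitors over the 6 libraries were sought among 7681 genes of 10 CPM or more, by the root mean square difference of log2 CPM centred on each gene's mean. Nearest to Socs2 were Dhrs11 (0.09), the histone gene H2afz (0.09) and Zfp958 (0.12). Nearest to Socs1 were Pitpnb (0.02), Isca1 (0.02) and Adrm1 (0.04), and among the nearest to Socs3 were Xrcc6 (0.06) and Sfmbt1 (0.07). Nearest to Cish were Pcnp (0.15), Taf9 (0.31) and Ncoa4 (0.34), each of which was also low in oil replicate 2. Pcnp stood at 178, 125 and 167 CPM in tamoxifen and at 163, 17.0 and 197 CPM in oil. The low value of oil replicate 2 was therefore not limited to Cish, though these genes were picked for their likeness to it.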

How the data were processed

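For the 6 libraries, cDNA was made in cell lysate (SMARTer Ultra Low kit) and amplified by PCR, per the labels' protocols, without molecular identifiers, so limits from counts cover counting error only. The deposited table holds whole-number counts per gene and library, FPKM values made by the authors from them, and the authors' p-values and q-values for tamoxifen against oil. HISAT2, StringTie and the mm10 build are named without roles, per the submitters' processing notes; the counter and its strand setting are not given there. Counts were tested with edgeR 4.0.16 (R 4.3.3; quasi-likelihood, TMM, default filter by group, Benjamini-Hochberg over 10811 genes, threshold 0.05), after a check on simulated data. CPM use the TMM factors; standard errors come from the F statistic; log2 CPM use a prior count of 2. Genes were named if listed, if among the 2 smallest p-values of a pathway list without a call, or as the 3 nearest patterns; others were named after their values were seen. Not every gene so selected is reported here. The members and lists were chosen with earlier results of these data known. Alternatives used DESeq2 1.42.0 and limma 3.58.1, among 17 settings.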

Additional observations from a re-analysis of the deposited data

How the results depend on the processing

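The count of genes called, 1 with edgeR and TMM, was 18 with DESeq2, 6 with no filter on low counts, 0 in each of the limma fits to FPKM (pseudocounts of 1 and 0.1, and 1 without a filter), and 11 with the length slope of each library as a covariate, a setting chosen after seeing the data; it was 0 to 6 with 1 library left out. The cause was not tested. With the replicate number as a block it was 0. Both groups carry the same library numbers in the authors' column names, and whether same-numbered libraries belong together is not known. The deviations of same-numbered libraries from their group means correlated at -0.07, 0.27 and 0.16 across genes. So few pairs cannot settle the question. With the block Socs2 had a log2 fold change of 0.58.

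Socs2, Socs3 and Il10ra kept their direction in all 17 settings. Il10ra had a log2 fold change of 0.59 with the length slope as a covariate (adjusted p = 0.408 by edgeR). Socs1 took the opposite sign with that covariate (-0.042) and ranged from -0.047 to 0.082 with 1 library left out. With the covariate Stat3 was at 0.16 and Stat6 at 0.072. With 1 library left out Stat3 ranged from -0.53 to 0.14, Stat6 from -0.49 to 0.11 and Cish from -0.085 to 1.00. The difference in the share of Cish was -0.27 percentage points without oil replicate 2 and up to 3.56 without another library. In the order of levels, 6 of 8 genes changed place per kilobase of merged exons, chosen after seeing the data, and 0 to 2 with 1 library left out. At these depths, levels such as that of Il6st are not resolved.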

Other observations

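The gap between the lowest library and the next lowest was looked at after the values of Cish were seen, as was the threshold of 5-fold. Of 4086 genes with a mean of 50 CPM or more, 8 had a gap of at least 5-fold. The gap was 18.0-fold for Hba-a1, a haemoglobin gene, 9.85-fold for Nrros, 7.41-fold for Cish and 7.33-fold for Pcnp. The others were Fam103a1, Hnrnpf, Aarsd1 and Ets1. The lowest library was oil replicate 2 for 3 of the 8 genes, Hba-a1, Cish and Pcnp.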
